A study of Mus musculus with 39 samples.

Results

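The coupling of gene expression between 2 brain regions was examined in APP/Tau mice, a cross of a line that carries mutant human amyloid precursor protein with a line that carries mutant human tau. The members were the 9 pairs of libraries in which a basolateral amygdala (BLA) library and a hippocampal library carry the same number, out of 19 such pairs among 39 libraries. For each gene, the log2 CPM in the BLA (CPM are counts scaled to the library total) were set against those in the hippocampus after the naive and the trained mean had been subtracted, and a gene is called coupled where the 2 rise and fall together from pair to pair. The 10 control pairs are the reference, and the control hippocampal library numbered 16 has no BLA partner and was left out.

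All mice were females aged 9 months. The APP/Tau mice are labelled APP/Tau;Camk2a_Cre;RiboTag+/- and the controls Camk2a_Cre;RiboTag+/-, so that both genotypes carry the Cre driver of forebrain glutamatergic neurons and the tagged ribosome. The APP line is J9 (APPSw,Ind) and the tau line PS19 (P301S). Of the APP/Tau pairs, 5 are naive (numbers 7, 13, 14, 15 and 18) and 4 are trained (1, 10, 17 and 19). Of the control pairs, 5 are naive (3, 4, 8, 9 and 12) and 5 trained (2, 5, 6, 11 and 20). Trained mice received a tone that ended with a footshock and were killed 1 hour later. The libraries are input fractions, which hold RNA of every cell type in the tissue, and the BLA was taken as small punches that can include neighbouring nuclei.

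Amyloid deposits and tau tangles are accompanied by glial activation. Microglia near plaques take on a state marked by Trem2, Tyrobp, Apoe, Clec7a and Cst7, with lysosomal cathepsins and major histocompatibility genes, while astrocytes raise Gfap, Serpina3n and C4b. Other programmes also vary between animals: clock genes follow the time of day, glucocorticoid targets follow the stress hormone, and immediate early genes follow recent neuronal firing. In tissue RNA, fewer cells of a type and less RNA per cell cannot be told apart.

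The labels share numbers between regions without saying that a number is a mouse, so the pairing was checked first. Over 22713 genes and after removal of the group means, same-number libraries correlated with r of 0.0776 to 0.387 in APP/Tau (median 0.209), against -0.261 to 0.126 for libraries of different numbers in the same group. In controls the ranges were 0.0738 to 0.237 and -0.143 to 0.0406. Only 8 of the 9 APP/Tau pairs and 7 of the 10 control pairs passed 0.1, so the criterion that every pair passes was missed. The best match carried the same number for 8 of 9 BLA and 9 of 9 hippocampal libraries in APP/Tau, and for all 10 and all 10 in controls. The mean same-number correlation was the highest of all 2880 pairings within training groups in APP/Tau (exact 1-sided p = 0.000347, the smallest these pairings can give), and of all 14400 in controls (exact 1-sided p = 6.94e-05, likewise the smallest). The exception was pair 13, a naive APP/Tau pair, whose BLA library resembled the hippocampal library 18 more (0.126) than its own (0.0776).

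**Figure D1:**
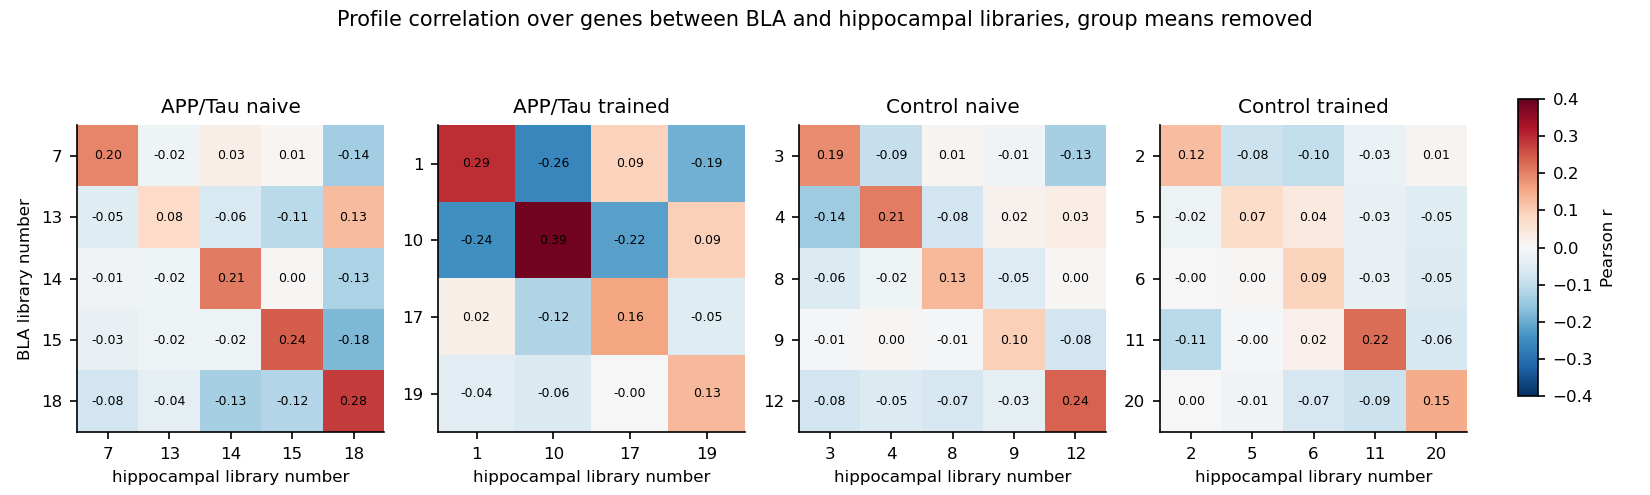
Pearson correlation over genes between each BLA library (vertical axis, library number) and each hippocampal library (horizontal axis) of the same group, after removal of the group means, with the colour scale from -0.4 to 0.4. The diagonal holds the same-number pairs, between 0.0776 and 0.387 in APP/Tau, and it is the highest value of its line in all but the BLA library 13.

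Library totals were 50.3 to 74.3 M counts in the BLA and 92.1 to 122 M in the hippocampus, and mitochondrially encoded genes held 1.77 to 4.06% and 2.97 to 3.91% of them. Between regions of the APP/Tau pairs, the total correlated with r = -0.52 and the mitochondrial share with r = 0.21, while the share of the 20 most abundant genes had r = 0.75 (exact permutation p = 0.00938, adjusted p = 0.075 over 8 relations) and a Spearman rho of 0.75 (exact permutation p = 0.0278, adjusted p = 0.222). Without the 2 pairs farthest from the median that r was 0.77, and the part of this measure in the coupling was not tested. The tissue labels were checked against marker genes. All 4 choroid plexus markers were higher in every hippocampal than in every BLA library, as were 2 of 4 hippocampal markers, while Wfs1 was higher in every BLA library. None of the 4 BLA neuron markers was higher in every BLA library, and Neurod6 was higher in every hippocampal library (132 to 257 against 8.25 to 96.8 CPM). The other BLA neuron markers had overlapping ranges with higher medians in the BLA than in the hippocampus. These were 38.7 against 19.9 CPM for Rspo2, 294 against 195 CPM for Lmo3 and 148 against 122 CPM for Etv1. Of 5 markers of the central amygdala and striatum, 4 were higher in every BLA library. The summed level of those 5 markers ran from 191 to 1310 CPM among the APP/Tau BLA libraries, and how far this mixture enters the coupling was not tested. The 15 central amygdala and striatal genes tested had a median r of 0.03 between regions, and 0 were called, against 1.62% of all genes. For a list of this size 0 is near that share, so the count says nothing of the mixture.

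Most genes moved weakly together across APP/Tau pairs. Of 22713 genes, 70.9% had r above 0, and the median r was 0.24 (quartiles -0.0574 and 0.516). Exchanging the BLA libraries among mice within naive and trained gave medians from -0.193 to 0.248, and 2 of the 2880 pairings, the observed one included, reached 0.24 (exact permutation, 2-sided p = 0.000694). In controls 61.9% of genes were above 0 and the median r was 0.125, with medians of -0.103 to 0.147 in the other pairings (exact permutation, 2-sided p = 0.000417). In both genotypes this test exchanges the same libraries over the same genes as the pairing check. The medians are therefore not a result independent of that check. The hippocampal spread between pairs was also larger in APP/Tau, where the median SD over genes was 0.249 log2 units, than in controls, where it was 0.169. The difference between these medians was not tested.

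**Figure D2:**
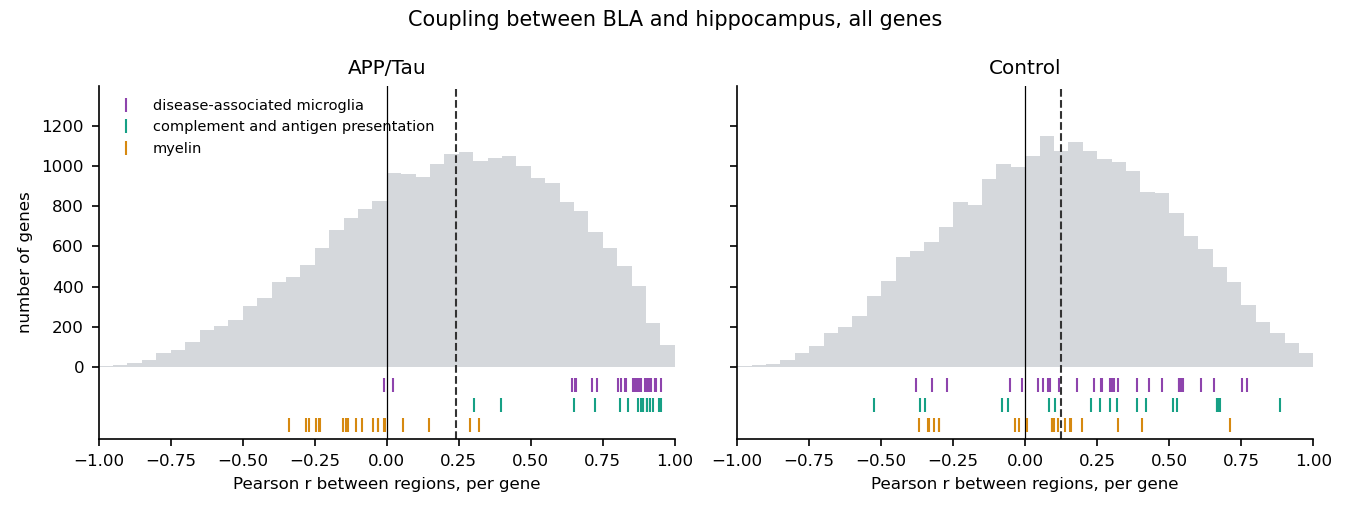
Number of genes (vertical axis) by Pearson r between BLA and hippocampus (horizontal axis, bins of 0.05), with the APP/Tau pairs on the left and the control pairs on the right; the dashed line is the median (0.24 and 0.125) and ticks under the bars are single genes of 3 lists. The microglial and the complement and antigen presentation genes crowd at the right edge in APP/Tau and are spread out in controls, and the myelin genes run from -0.34 to 0.32 in APP/Tau and from -0.37 to 0.71 in controls.

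Gene by gene, the regression of the BLA value on the hippocampal value called 371 genes in APP/Tau (limma-style moderated regression, Benjamini-Hochberg adjusted p under 0.05): 369 positive, which is 1.62% of the genes tested, and 2 negative, which is 0.00881%. In controls it called 207 positive (0.911%) and 7 negative (0.0308%) genes. These calls rest on the normal model: the exact permutation test over pairs called 0 genes in either genotype after adjustment. Its p cannot fall under 0.000347 in APP/Tau or 6.94e-05 in controls, which limits what it can call after adjustment over 22713 genes. Its smallest adjusted p was 0.219 for Pearson r and 0.382 for Spearman rho in APP/Tau, while 2269 positive and 216 negative genes had an unadjusted Pearson p under 0.05. Every exact p below is therefore unadjusted, with an adjusted value of 0.219 or more. Leaving out 1 APP/Tau pair at a time gave 177 to 455 calls, the fewest without pair 10 (177) and pair 1 (190). Of the 369 positive genes, 97 were called in all 9 of these fits and 9 in none.

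A direct test of the difference in slope between the genotypes called 0 of 22713 genes, also in each of the 24 other fits of it, with 658 genes higher and 435 lower in APP/Tau at an unadjusted p under 0.05. A gene called in APP/Tau and not in controls is therefore not shown to differ between them. Among the genes with the smallest p for this difference, Arhgap25, a GTPase-activating protein of blood-lineage cells, had r = 0.92 in APP/Tau and -0.66 in controls (adjusted p = 0.886 in the moderated regression). Car4, a membrane-bound carbonic anhydrase of capillaries, had r = 0.03 and -0.90.

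The disease-associated microglia list holds genes of the plaque-associated state. Of 30 tested, 18 were positive against the background of 1.62%, and 0 were negative. Of the 30, 29 had r above 0, against 70.9% of all genes, and the median r was 0.87, against 0.24 over all genes. In controls 0 of the 30 were called, against 0.911% of all genes, and the median r was 0.30. The hippocampal values of Ccl6, one of the 18, fell into clusters, which the regression does not take into account. The spread of these genes was also unequal: the median hippocampal SD was 0.89 log2 units in APP/Tau and 0.30 in controls.

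Clec7a, the beta-glucan receptor dectin-1, ran from 0.599 to 42.5 CPM in the APP/Tau hippocampus (median 8.38) and from 0.069 to 17.6 CPM in the BLA (median 0.782). Pairs 1, 17 and 18 were the 3 highest in both regions, and pairs 10 and 15 the 2 lowest in both. Controls stayed at or under 0.557 CPM in the hippocampus and 0.369 CPM in the BLA, so that the hippocampal values of the genotypes did not overlap while the BLA values did. The coupling of Clec7a in APP/Tau was r = 0.91 and rho = 0.97 (exact permutation p = 0.000347 and 0.000694), it stayed at 0.89 without pairs 10 and 15, and the moderated regression gave an adjusted p of 0.00742.

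Trem2, the lipid-sensing receptor that the state depends on, ran from 11.9 to 64.3 CPM in the APP/Tau hippocampus (median 21.3) and from 9.28 to 45.8 CPM in the BLA (median 17). The same 3 pairs were highest in both regions, with pair 18 first in the hippocampus (64.3 CPM) and pair 1 first in the BLA (45.8 CPM). Its r was 0.88 and its rho 0.78 (exact permutation p = 0.00625 for r), with r = 0.89 without pairs 17 and 18. Tyrobp, the adaptor through which Trem2 signals, had r = 0.91 (exact permutation p = 0.00139) and rho = 0.80. Cst7, an inhibitor of cathepsins, had r = 0.86 (exact permutation p = 0.0128) and rho = 0.82, and it was called in only 3 of the 9 fits that leave out a pair. Apoe, the lipid carrier, missed the threshold of the moderated regression with r = 0.83 (adjusted p = 0.0812) although its rho was 0.93.

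Lysosomal proteases digest what microglia take up. Ctsd, the aspartic protease cathepsin D, had r = 0.93 and rho = 0.92. Ctsh, cathepsin H, which was named after its values were seen, ran from 8.06 to 46.8 CPM in the APP/Tau hippocampus (median 14.5) and from 5.76 to 24.5 CPM in the BLA (median 9.61). Ctsh was highest in pairs 1, 17 and 18 in both regions and near its lowest in pairs 10 and 15. The correlation of Ctsh was 0.98 and its rho 0.97 (exact permutation p = 0.000694 and 0.00208), and r stayed at 0.98 without pairs 1 and 18. In controls the hippocampal level of Ctsh covered only 6.66 to 9.31 CPM and r was -0.18. The slopes, 0.74 ± 0.07 (SE, n = 9) and -0.20 ± 0.43 (SE, n = 10), did not differ after adjustment (unadjusted p = 0.0298, moderated regression over all genes).

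Complement and antigen presentation genes followed. Of 20 tested, 14 were positive, against 1.62% of all genes, and 0 were negative. All 20 had r above 0, against 70.9% of all genes, with a median r of 0.90. In controls 0 were called, against 0.911% of all genes, and the median was 0.31. Cd74, the invariant chain of class II molecules, ran from 2.74 to 75 CPM in the APP/Tau hippocampus (median 11) and from 1.12 to 62.2 CPM in the BLA (median 3.24). Pairs 1 and 17 were highest in the hippocampus for Cd74, with 72.6 and 75 CPM. In the BLA pair 1 stood first with 62.2 CPM, and pairs 17 and 13 followed with 19.2 and 18.5 CPM. The r of Cd74 was 0.95 and its rho 0.95 (exact permutation p = 0.00382 and 0.00347), and r was 0.96 without pairs 10 and 17. H2-D1 and B2m, the chains of class I molecules, had r of 0.95 and 0.95 and were called in all 9 fits that leave out a pair. The complement genes C1qa, C1qb and C1qc were all called. They adjoin each other in the RefSeq gene order, as do the class II genes H2-Ab1, H2-Aa and H2-Eb1, which were also called.

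Among reactive astrocyte genes, 8 of 23 tested were positive, against 1.62% of all genes, and 0 negative, with a median r of 0.70. In controls 1 of 23 was called, against 0.911% of all genes, and the median was 0.23. Of these 8, C4b and Psmb8 are also counted in the complement and antigen presentation list, and Cxcl10 in the interferon list. These genes are also expressed outside astrocytes, and the rest of the 8 was not checked for this. Gfap, the intermediate filament protein of astrocytes, ran from 672 to 4900 CPM in the APP/Tau hippocampus (median 1600) and from 49.9 to 1810 CPM in the BLA (median 128). Pairs 1, 17 and 18 had 3740 to 4900 CPM in the hippocampus, while the others stayed at or under 1790 CPM. In the BLA pairs 1 and 17 led with 1810 and 1130 CPM, pair 18 followed with 671 CPM and pair 13 with 284 CPM. Every APP/Tau hippocampus was above every control hippocampus, where the highest Gfap value was 499 CPM, whereas in the BLA the ranges overlapped (28.5 to 83.5 CPM in controls). The r of Gfap was 0.90 and its rho 0.90 (exact permutation p = 0.00278 for r), 0.88 without pairs 10 and 18, and 0.35 in controls. The slopes of Gfap were nearly equal in the 2 genotypes, 1.48 ± 0.22 (SE, n = 9) and 1.47 ± 1.15 (SE, n = 10), with a wide error in controls.

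C4b, the complement component that reactive astrocytes and oligodendrocytes express, ran from 63.2 to 482 CPM in the APP/Tau hippocampus (median 134) and from 14.1 to 146 CPM in the BLA (median 23.5). Pairs 18, 1 and 17 held the 3 highest hippocampal values of C4b (482, 472 and 362 CPM), and pairs 1, 17 and 18 the 3 highest BLA values (146, 114 and 68.7 CPM). The r of C4b was 0.90 and its rho 0.92 (exact permutation p = 0.00521 and 0.00208), and 0.84 without pairs 1 and 18. Of 15 general astrocyte genes, 2 were called, Sox9 and Aqp4, against 1.62% of all genes, with a median r of 0.61. Sox9 was called in 3 and Aqp4 in 1 of the 9 fits that leave out a pair. Once the training means were removed, the BLA values of Aqp4, a water channel, fell into clusters, so that by the rule for clusters no pooled correlation is given for it. Pairs 1, 17, 18 and 13 had 140, 128, 109 and 97.7 CPM of Aqp4 in the BLA, and the other 5 had 68.2 to 77.7 CPM. The hippocampus held 401 to 521 CPM of Aqp4 in pairs 1, 17 and 18 and 177 to 240 CPM in the rest.

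**Figure D3:**
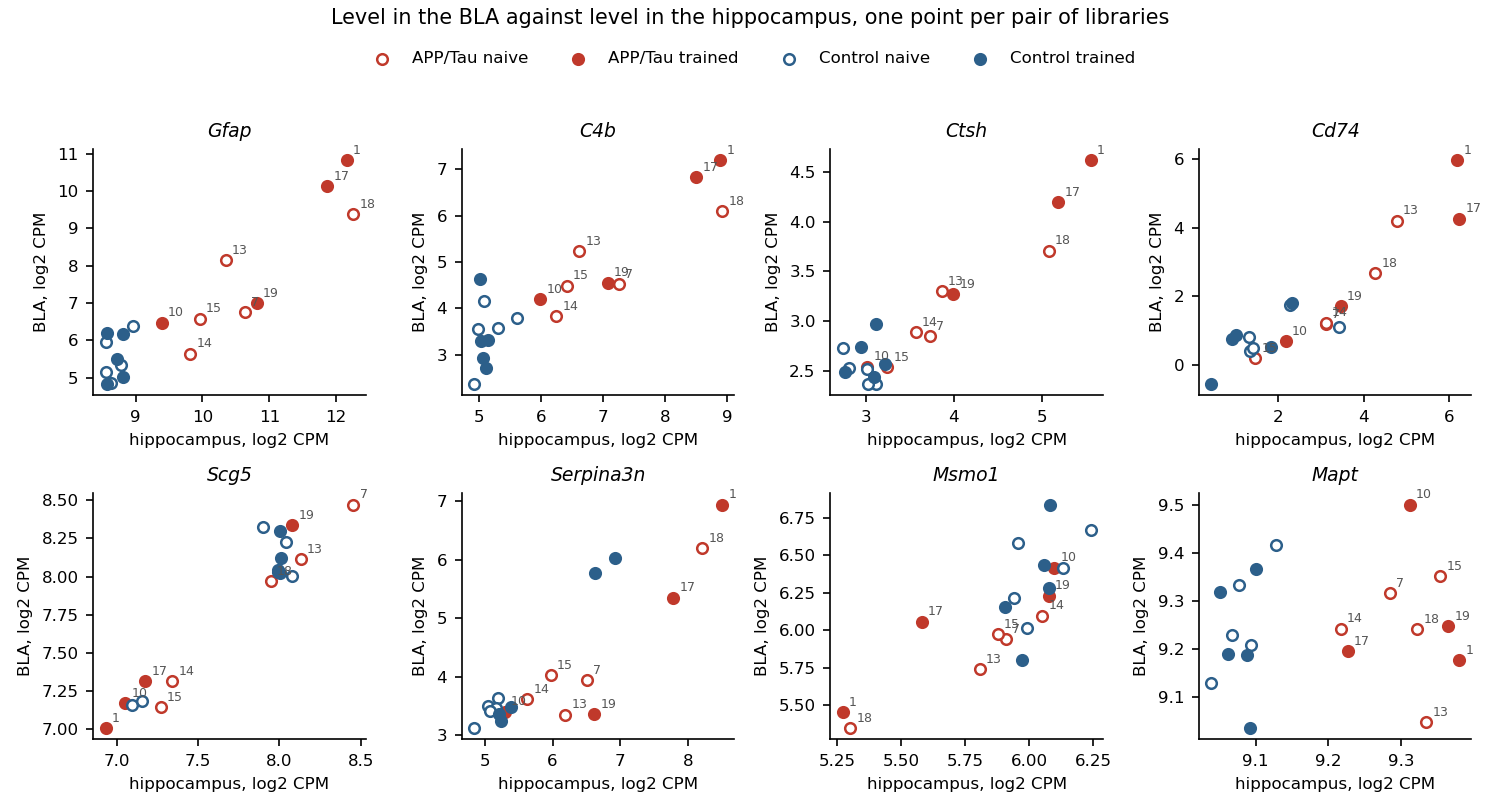
Level in the BLA (vertical axis, log2 CPM) against level in the hippocampus (horizontal axis, log2 CPM) for 8 genes, with a point for each pair of libraries, red for APP/Tau and blue for controls, filled for trained; APP/Tau points carry their number. For Gfap, C4b, Ctsh and Cd74 the controls bunch at the lower left and pairs 1 and 17 lie at the upper right, whereas Scg5 and Serpina3n also spread among controls and Mapt shows no slope (r = -0.06).

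Homeostatic microglial genes include receptors that resting microglia use to survey the tissue. In APP/Tau 4 of 18 were called (Fcrls, Ctss, Cx3cr1 and Laptm5), against 1.62% of all genes, with a median r of 0.75. In controls 3 of 18 were called (Siglech, Fcrls and Olfml3), against 0.911% of all genes, with a median of 0.58. Fcrls, an Fc receptor-like molecule of microglia, had r = 0.93 in APP/Tau and 0.97 in controls. Of 20 myelin genes 0 were called, against 1.62% of all genes, and 4 had r above 0, against 70.9% of all genes, with a median r of -0.10. The lists for dentate granule neurons, CA1 and CA3 neurons, interneurons and the 2 sides of the synapse also held 0 called genes, and their medians lay between -0.03 and 0.31. In lists of these sizes a count of 0 is near the share over all genes and does not set them apart.

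The shared glial level was then entered as a covariate. The hippocampal score of the disease-associated microglia list, its mean log2 CPM, ran from 3.19 in pair 10 to 5.75 in pair 1, and correlated with the BLA score at r = 0.95, a value that follows from the same genes. With this score as a covariate 169 genes were called, 158 of them positive (0.696%) and 11 negative, and 143 were shared with the 371. Of the 30 microglial genes 0 were then called and their median r was 0.26; the score is made of these genes. Of the 20 complement and antigen presentation genes 3 were still called (median 0.38), and of the 23 reactive astrocyte genes 0 (median 0.13). The median over all genes fell from 0.24 to 0.117, and that of the myelin list went from -0.10 to -0.70. Other medians were higher with the covariate: 0.58 against 0.54 for immediate early genes, 0.60 against 0.55 for glucocorticoid targets and 0.41 against 0.08 for 13 mitochondrially encoded genes.

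The called genes split by whether controls shared the call. Of the 369 positive genes, 116 were also positive in controls, which is 31.4% of the APP/Tau list and 56.0% of the control list. In these 116 the median r was 0.95 in both genotypes and the median hippocampal SD 0.93 and 0.94 log2 units, and 89 were still called with the microglial score as covariate. The other 253 had a median r of 0.91 in APP/Tau and 0.48 in controls and a median hippocampal SD of 0.83 and 0.28. Of these, 52 were still called with the score. The 116 were chosen by the calls in both genotypes, and the 253 by a call in APP/Tau without one in controls, so that the lower control values of the latter follow from the choice and all these values are a description.

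Genes with a descriptive name that are not pseudogenes made up 35.3% of the 116 and 75.9% of the 253, against 68.9% of all genes tested. Without the predicted genes and named pseudogenes, an alternative chosen after the data were seen, 159 genes were called in APP/Tau and 71 in controls. Processed pseudogenes resemble their parent gene, and how the counting treated reads that match both is not given, so that the values of single copies are uncertain. Rps2, a protein of the small ribosomal subunit, ran from 13 to 109 CPM in the APP/Tau hippocampus and from 26.3 to 141 CPM in the BLA, lowest in pair 7 in both. Its copy Rps2-ps13 ran the other way, with the highest value in pair 7 in both regions (32.4 and 79.1 CPM) and low values in pairs 17, 18 and 19. Over all 19 pairs the SD of Rps2 in the hippocampus was 1.04 log2 units and that of Rps2 and its 12 named copies summed was 0.20, and Rps2 took 14.5 to 87.9% of the sum.

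Parents and copies did not always move in opposite directions. Over the 19 pairs, after removal of the group means and as a description, Rps2 and its summed copies had r = -0.84 in the hippocampus and -0.72 in the BLA. Rpl30, a protein of the large subunit, and its 10 named copies had r = -0.85 in the BLA, where the SD was 0.99 for Rpl30 alone and 0.36 for the sum, but r = 0.71 in the hippocampus, where the SD was 0.66 and 0.63. Ftl1, the ferritin light chain, and its copies had r of -0.24 and -0.25 in hippocampus and BLA, and Rpl21 and its copies 0.78 and 0.76. Rpl30-ps1 was one of the 2 negative calls in APP/Tau, at 0.414 to 1.57 CPM in the hippocampus and 2.47 to 13.9 CPM in the BLA, with r = -0.98. The other was Pappa2, a protease of insulin-like growth factor binding proteins, which had r = -0.93 and rho = -0.97 (exact permutation p = 0.00174 for r). Pappa2 was highest in the hippocampus (6.04 CPM) and lowest in the BLA (2.44 CPM) in the same pair, number 1, and in pair 13 it stood at 0.723 CPM in the hippocampus and at its highest BLA value, 34.3 CPM. In controls the r of Pappa2 was -0.09.

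Among the genes with the smallest p in APP/Tau was Scg5. Scg5, the secretory granule protein 7B2 that chaperones prohormone convertase 2, ran from 122 to 351 CPM in the APP/Tau hippocampus (median 162) and from 129 to 355 CPM in the BLA (median 159). Pair 7 was highest and pair 1 lowest in both regions, and the 9 pairs kept the same order once the training means had been removed (r = 1.00, rho = 1.0, exact permutation p = 0.000347). Controls split differently: pairs 4 and 9 had 137 and 142 CPM in the hippocampus and the other 8 had 238 to 270 CPM. Their r was 0.93, and -0.57 without pairs 4 and 9, so that the control value rests on those 2 pairs.

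Hspa8, a constitutive heat shock protein, ran from 307 to 629 CPM in the APP/Tau hippocampus and from 246 to 557 CPM in the BLA, lowest in pairs 15 and 1 and highest in pair 7 in both regions, with r = 0.95 in APP/Tau and 0.96 in controls. The remaining heat shock and unfolded protein genes, 24 of 25, were not called, and 1.62% of all genes were called positive. Serpina3n, a secreted serine protease inhibitor of reactive astrocytes, had r = 0.92 in APP/Tau and 0.995 in controls. It was high in the APP/Tau pairs 1, 18 and 17 in both regions (hippocampus 362, 295 and 220 CPM, BLA 123, 73.1 and 40.7 CPM). Among controls 2 pairs stood out, numbers 2 and 20, with 98.9 and 121 CPM in the hippocampus and 54.6 and 64.8 CPM in the BLA, against at most 41.7 and 12.3 CPM in the other 8. Without pairs 2 and 20 the control r of Serpina3n was 0.91. The neighbouring copy Serpina3m was detected at 7.72 and 7.57 CPM in the hippocampus of pairs 1 and 18 and at no more than 0.0712 CPM in the other APP/Tau pairs, so that no correlation is given for it.

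Called genes were also looked up by their place on the chromosome. Of 361 positive APP/Tau genes with a place in the RefSeq gene order, 57 (15.8%) had a called gene next to them, against 3.19% of all 22168 tested genes with a place. The 57 include C1q, class II, Ccl and Serpina3 genes. Alad, an enzyme of haem synthesis, and Hdhd3, a hydrolase, are unrelated neighbours. Alad ran from 19.3 to 44.3 CPM in the APP/Tau hippocampus and from 25.6 to 50.4 CPM in the BLA, highest in pairs 15 and 18 and lowest in pairs 14 and 19 in the hippocampus, with r = 0.97; Hdhd3 had r = 0.97. Ide, the insulin-degrading enzyme that also cleaves amyloid beta, and Glo1, which detoxifies methylglyoxal, had r of 0.97 and 0.98. Alad, Hdhd3, Ide and Glo1 were named after their values were seen.

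In lists for metabolism, the clock, stress and activity fewer genes were called than in the disease-associated microglia list. In the cholesterol synthesis list 4 of 22 were called, among them Msmo1 and Fdps, against 1.62% of all genes. All 22 had r above 0, against 70.9% of all genes, and the median r was 0.73. In controls 1 was called, against 0.911% of all genes, and the median was 0.56. Msmo1, a sterol demethylase, ran from 38.6 to 68.5 CPM in the APP/Tau hippocampus (median 58.8) and from 40.7 to 85.4 CPM in the BLA (median 62.7). Msmo1 was lowest in pairs 1 and 18 and highest in pair 10 in both regions; in the hippocampus Gfap was lowest in pair 10. Its r was 0.95 and its rho 0.93 (exact permutation p = 0.000694 for r), with r = 0.82 without pairs 1 and 18. Fdps, farnesyl diphosphate synthase, had r = 0.91. With the microglial score as covariate 0 of the 22 were called and the median r was 0.34.

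The clock list had 2 of 20 called, Ciart and Per3, against 1.62% of all genes, with a median r of 0.54. In controls 1 was called (Dbp), against 0.911% of all genes, with a median of 0.43. Ciart, a repressor of the clock, ran from 4.29 to 12.3 CPM in the APP/Tau hippocampus and from 7.24 to 17.1 CPM in the BLA, highest in pair 13 in both. Its r was 0.94 (exact permutation p = 0.00451), 0.69 without pairs 13 and 18, and 0.81 in controls. Per3, a period gene, was lowest in pairs 18 and 1 in the hippocampus (19.1 and 22.4 CPM) and in pairs 1 and 19 in the BLA (25 and 26 CPM), with r = 0.93 (exact permutation p = 0.0125). Of the 9 fits that leave out a pair, Ciart was called in 6 and Per3 in 2. Dbp, an output gene of the clock, had r = 0.80 (exact permutation p = 0.0476), which fell to 0.42 without pairs 1 and 13. Of 19 glucocorticoid targets 0 were called, which is near the 1.62% of all genes for a list of this size. Of the 19, 17 had r above 0, against 70.9% of all genes, and the median was 0.55, against 0.53 in controls. Fkbp5 had r = 0.48, and the values of Sgk1 fell into clusters, so that no pooled correlation is given for it.

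Immediate early genes had a median r of 0.54 over 29 genes in APP/Tau and 0.61 in controls. Arc, a cytoskeletal protein of active synapses, was the 1 of 29 called in APP/Tau, against 1.62% of all genes. Fos, Fosb, Egr3, Nr4a1 and Nr4a2 were the 5 called in controls, against 0.911% of all genes. Arc ran from 55.1 to 126 CPM in the APP/Tau hippocampus (median 117) and from 42.3 to 102 CPM in the BLA (median 49.1). Its r was 0.87 (exact permutation p = 0.0236), but 0.25 without pairs 1 and 14, so that the relation rests on those pairs. Fos had r = 0.64 in APP/Tau (exact permutation p = 0.0969) and 0.92 in controls, and the slopes did not differ (unadjusted p = 0.106, moderated regression). Without pairs 15 and 18 the APP/Tau r of Fos was -0.05. Egr1 had r = 0.68 and Npas4 -0.05.

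Interferon-induced genes make the antiviral state and can rise in microglia near plaques. Of 24 tested, 2 were called, Bst2 and Cxcl10, against 1.62% of all genes, and all 24 had r above 0, against 70.9% of all genes, with a median of 0.71 in APP/Tau and 0.35 in controls. Bst2, or tetherin, which holds budding viruses at the cell surface, ran from 3.33 to 14.8 CPM in the APP/Tau hippocampus and from 1.11 to 4.43 CPM in the BLA, highest in pairs 18 and 1 in both. Its r of 0.91 fell to 0.49 without those 2 pairs and its rho was 0.65 (exact permutation p = 0.0868). Cxcl10, a chemokine, ran from 0.556 to 5.5 CPM in the hippocampus and from 0 to 2.48 CPM in the BLA, with r = 0.87 and the highest value in pair 18 in both regions. Of the 9 fits that leave out a pair, Bst2 was called in 1 and Cxcl10 in 3.

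The promoters of the 4 called interferon and clock genes are shown because known motifs of these programmes can be looked up in them. Motifs were searched on both strands from 250 bases before to 50 bases after the start, with overlaps counted, and the sequences are from RefSeq, build GRCm38.p6. The interferon-type motif, GAAA followed by 2 further bases of any kind and a second GAAA, occurred in 12 of 19 interferon genes with a promoter in the table (63.2%), against 3.44% of all 32851 promoters and 3.63% of the 15403 tested genes with a promoter. The E-box CACGTG occurred in 5 of 17 clock genes (29.4%) against 7.15% of promoters and 10.4% of tested genes, and the D-box TTATGTAA in 1 of 17 (5.88%) against 0.938% and 0.876%. The glucocorticoid-type motif, AGAACA and TGTTC with 3 bases between them, occurred in 1 of 18 glucocorticoid genes, Sgk1, against 0.0487% and 0.013%. A match is a description of letters, and genes with the motif were both called and not called. In the stretches below, of 100 bases each and wholly before the start, capitals mark the motif, which is the interferon-type motif in Cxcl10 (chr5:92349040-92349139, minus strand) and, at 2 overlapping places, in Bst2 (chr8:71537545-71537644, minus strand), CACGTG in Ciart (chr3:95882256-95882355, minus strand) and TTATGTAA in Per3 (chr4:151044794-151044893, minus strand).
Cxcl10: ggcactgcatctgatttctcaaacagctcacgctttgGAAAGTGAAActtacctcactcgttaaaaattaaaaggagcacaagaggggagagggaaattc
Bst2: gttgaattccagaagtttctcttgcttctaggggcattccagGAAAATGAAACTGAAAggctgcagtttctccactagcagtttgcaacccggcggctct
Ciart: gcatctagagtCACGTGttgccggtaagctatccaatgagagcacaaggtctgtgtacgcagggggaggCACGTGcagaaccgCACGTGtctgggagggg
Per3: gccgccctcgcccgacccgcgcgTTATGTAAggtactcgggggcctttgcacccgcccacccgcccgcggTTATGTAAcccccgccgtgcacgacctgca

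The transgene-related genes covered narrow ranges. Of 5 tested 0 were called, which is near the 1.62% of all genes for so few genes. Their median r was 0.33, against 0.24 over all genes. App, the mouse amyloid precursor protein gene, ran from 2270 to 2690 CPM in the APP/Tau hippocampus and from 1720 to 2290 CPM in the BLA, with r = 0.70 (exact permutation p = 0.0691, adjusted p = 0.505 in the moderated regression) and 0.30 without pairs 1 and 10. Mapt, the tau gene, covered 595 to 666 CPM and 529 to 725 CPM with r = -0.06. Prnp, the prion protein gene whose promoter drives tau in the PS19 line, covered 1600 to 2230 CPM and 1070 to 1680 CPM with r = -0.54, which turned to 0.69 without pairs 13 and 19. How reads of a human transgene are shared with the mouse genes is not given in the sources used here.

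**Figure D4:**
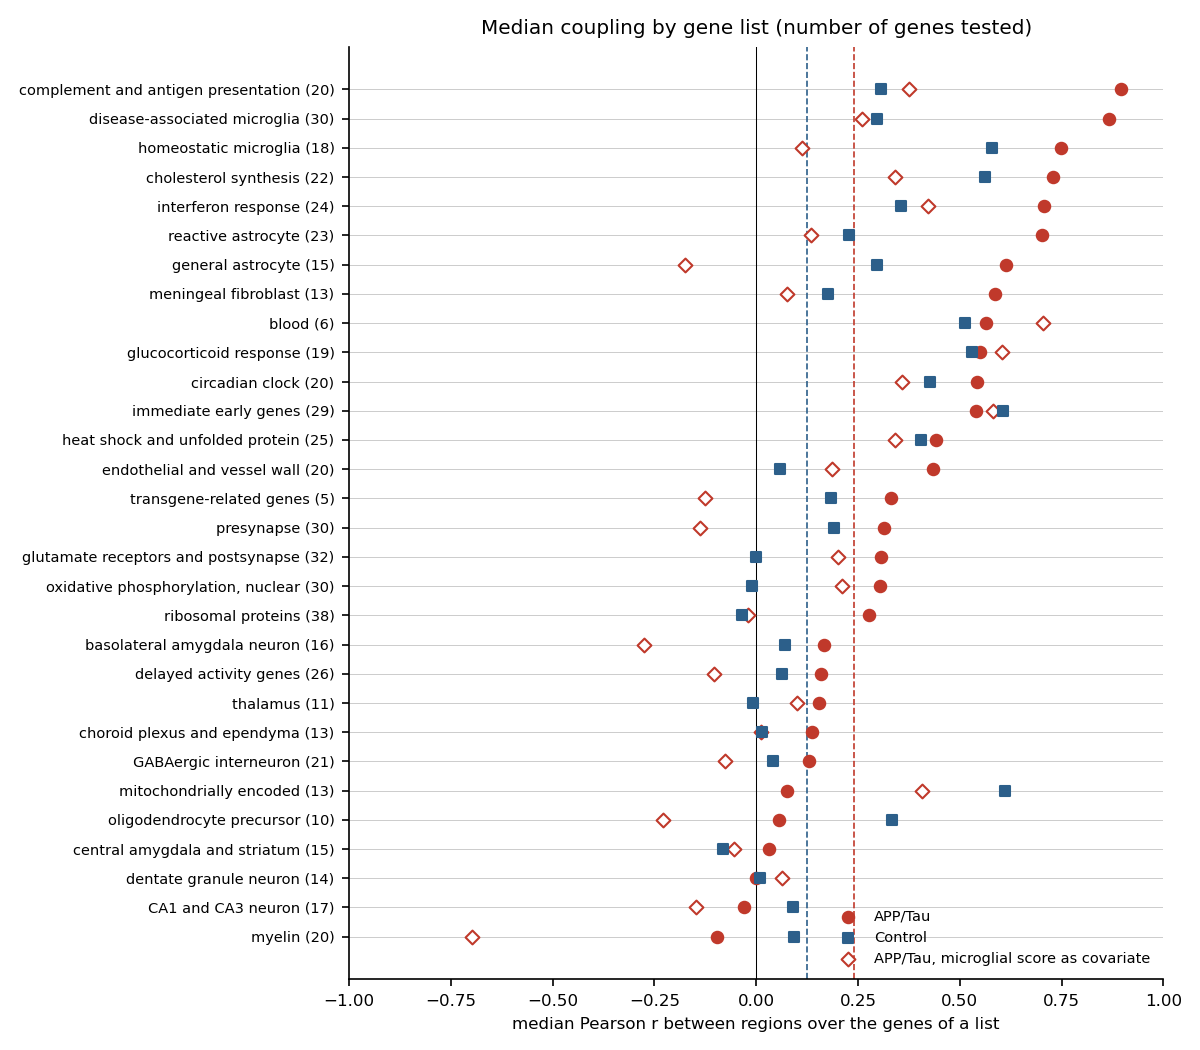
Median Pearson r between regions (horizontal axis) for 30 gene lists (vertical axis, number of genes tested in brackets) in APP/Tau (red circles), in controls (blue squares) and in APP/Tau with the hippocampal microglial score as covariate (open diamonds); dashed lines are the medians over all genes, 0.24 and 0.125. The complement and antigen presentation list (0.90) and the disease-associated microglia list (0.87) lie at the top in APP/Tau and at 0.31 and 0.30 in controls, and the covariate takes them to 0.38 and 0.26.

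Coupling across pairs says nothing of whether the genotype changed the 2 regions equally, so the genotype effect in the BLA minus that in the hippocampus was tested over the 38 paired libraries. The main fit held the group means of region, genotype and training but no term for the pair, so that it did not use the pairing. Of 26224 genes, 8 were called (0.0305%, edgeR quasi-likelihood, adjusted p under 0.05), 3 higher and 5 lower in the BLA. App was higher in APP/Tau than in controls in the hippocampus (2469 ± 149 against 1789 ± 83.0 CPM, SD, n = 9 and 10) while in the BLA it was 1944 ± 200.2 against 2162 ± 199 CPM (adjusted p = 0.105), a difference of effects of -0.62 ± 0.08 log2 units (SE, adjusted p = 0.000157). Prnp was higher in both regions, by 0.57 in the BLA and 1.12 in the hippocampus on the log2 scale (difference -0.55 ± 0.10, adjusted p = 0.0271), and Prn, which shares sequence with it, by 0.77 and 1.43 (difference -0.66, adjusted p = 0.0189). Because of the shared sequence the calls of Prnp and Prn may not be separate, which was not tested.

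Among the other called genes, Il1r1, the interleukin-1 receptor, was higher in the BLA of APP/Tau mice (3.02 ± 0.875 against 1.78 ± 0.328 CPM) while the hippocampus held 14.3 ± 3.49 against 16.9 ± 2.22 CPM (adjusted p = 0.171), with a difference of effects of 1.02 ± 0.16 (adjusted p = 0.00291). Prox1, the transcription factor of dentate granule neurons, was lower in the APP/Tau hippocampus (98.7 ± 23.9 against 142 ± 15.8 CPM), and its effects differed by 0.71 ± 0.14 (adjusted p = 0.0474). Ptprc, the leukocyte antigen CD45, was lower in the APP/Tau BLA (11.8 ± 5.35 against 24.9 ± 9.26 CPM) and higher in the hippocampus (10.6 ± 6.97 against 2.78 ± 0.595 CPM), a difference of -3.02 ± 0.44 (adjusted p = 0.000699). With limma-voom without a correlation within mice 4 genes were called, all lower in the BLA, so that the calls of Il1r1 and Prox1 were lost. When limma-voom took the pair number as a correlation within mice 7 genes were called. Of these 2 were higher and 5 lower in the BLA, and 6 were among the 8. With the pair number as a block 30 genes were called, 6 of them among the 8, and the adjusted p of Prox1 rose to 0.0777. In that edgeR quasi-likelihood fit the adjusted p was 0.000209 for App, 0.02085 for Il1r1, 0.0295 for Ptprc, 0.0369 for Prn and 0.0476 for Prnp. Without pair 10 the count was 70, without control pair 5 it was 21, and it was 3 without control pair 4, control pair 8 or pair 14.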

How the data were processed

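Poly(A) RNA of input lysates from the BLA (10 ng) and the hippocampus (50 ng) of female mice aged 9 months was sequenced. The authors deposited counts per gene symbol and library, without normalization; per the submitters' processing notes, Trimmomatic 0.39 was used and the genome build was mm39. Neither aligner, counter, annotation nor strandedness is given in the sources used here. Whole-number counts of 50559 genes were used. Totals were 50.3 M counts or more per library, but genes near the minimum count rest on few reads in some libraries, where counting error adds to the spread.

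Pairs were formed by the number that the labels give in both regions. Genotype, training and replicate matched for all 19 numbers. The 22713 genes kept by filterByExpr (minimum count 10, minimum total 15) in both regions were scaled with TMM and put on the log2 CPM scale with a prior count of 2. Levels printed are TMM-scaled CPM, except those of the tissue markers, which are CPM of the library total without TMM. The SD and r of parent genes and their summed copies over 19 pairs use the log2 of such unscaled CPM plus a small constant. The BLA value was regressed on the hippocampal value of the same gene with the training means as covariates, with residual variances moderated over all genes as in limma 3.58.1 (R 4.3.3), a 2-sided test and Benjamini-Hochberg adjustment over all genes. Exact tests exchanged the BLA libraries among mice within naive and trained, 2880 pairings in APP/Tau and 14400 in controls. No replicate library pair was a duplicate (smallest chi-square per gene 10.7 in the BLA and 21.2 in the hippocampus, 171 pairs each). The genotype effect between regions used edgeR 4.0.16 on the counts of 38 libraries, without a term for the pair in the main fit. Nothing in the labels says that mice of a group came from separate litters, so p-values measure the spread between these mice.

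Mice were taken to fall into clusters where a gap over 0.5 of the range separated at least 2 of them on each side. The genes named are a preset set of transgene, glial, activity and clock genes, those with the smallest p for positive, negative and differing coupling, the smallest p within each list with a called gene (narrowed to such lists after the data were seen) and those chosen after their values were seen. Exact p-values of the named genes were adjusted over all genes rather than over the named genes. Of the genes tested, 22168 matched the RefSeq gene table of GRCm38.p6, which served for gene order only. The members and the lists were chosen with earlier results of these data known. The scripts were tested on simulated data.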

Additional observations from a re-analysis of the deposited data

Results flagged for a closer look

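In the groups of 4 or 5 APP/Tau libraries, the highest or lowest value of 20 genes in each region, the library totals and the mitochondrial and top-gene shares was compared with the rest of the group. The same-number correlations were compared likewise, in the control groups as well. There were 96 groups in all, of which chance sets about 1 in 20 apart. A gap to the nearest library above the 95% critical value of Dixon's test appeared in 5. Pair 18 stood apart among naive mice for Trem2 in the hippocampus (64.3 CPM, the others 13.7 to 21.3), for Serpina3n in the BLA (73.1 CPM, the others 10.1 to 16.3) and, at the low end, for Per3 in the hippocampus (19.1 CPM, the others 34.3 to 39.8). Pair 1 stood apart at the low end among trained mice for Hspa8 in the BLA (277 CPM, the others 423 to 459) and for Arc in the hippocampus (55.1 CPM, the others 117 to 126).

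The genotype effect differed between regions, by the test of the difference itself (edgeR quasi-likelihood without a term for the pair, adjusted p under 0.05), for Il1r1 (BLA minus hippocampus 1.02 on the log2 scale), Prox1 (0.71), App (-0.617), Ptprc (-3.02), Prn (-0.66) and Prnp (-0.547). With the pair number as a block the adjusted p of Prox1 was 0.0777 in the same kind of test.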

How the results depend on the processing

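The 371 coupled genes in APP/Tau became 169 with the microglial score as covariate, 159 without predicted genes and named pseudogenes (fewer genes tested, an alternative chosen after seeing the data) and 0 by exact permutation of Pearson r or Spearman rho. Leaving out each APP/Tau replicate gave 177 to 455; without pair 10 it was 177, without pair 1 190, without pair 17 219, without pair 14 231, without pair 15 244 and without pair 7 246. The 214 in controls became 71 without predicted genes and named pseudogenes, 0 by either exact permutation, and 142 to 235 without a replicate, the lowest without control pair 12. All other settings of the count stayed within 1.5 times, from 268 (at least 1 CPM) to 543 (training means kept) in APP/Tau and from 164 to 306 in controls. A similar count did not always hold the same genes. Without a filter 36943 genes were tested. In APP/Tau 344 were then called, 168 of them among the 371. In controls 291 were called, 143 of them among the 214. The coupling difference stayed at 0 in every fit run. With at least 1 CPM in both regions the median r was 0.289 in APP/Tau and 0.145 in controls; without a replicate it was 0.198 to 0.288 and 0.11 to 0.15.

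The region difference of the genotype effect, 8 genes, became 4 with limma-voom without a correlation within mice (0 higher and 4 lower in the BLA, so that the calls of Il1r1 and Prox1 were lost), 62 with DESeq2, and 3 to 70 without a replicate. With the replicate block it was 30, and with limma-voom and that block as a correlation within mice it was 7 (2 higher and 5 lower in the BLA). Same-number libraries passed r of 0.1 in 8 of 9 and 7 of 10 pairs, so the criterion set for pairing was missed and the labels do not state it, although the same-number match was the best of all pairings in both genotypes (exact 1-sided permutation p = 0.000347 and 6.94e-05): every hippocampal library, and all but 1 APP/Tau BLA library, correlated best with its own number.

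Among single genes, the direction of coupling turned for Npas4 (0.176 with training means kept, 0.366 without the 2 farthest pairs, -0.339 to 0.301 without a replicate, above 0 without naive replicates 2, 3, 4 and 5 at 0.0107, 0.00776, 0.301 and 0.0277), Mapt (-0.351 to 0.0952 without a replicate), Per2 (-0.138 to 0.75 without a replicate, -0.0521 without the 2 farthest pairs), Fos (-0.0526) and Prnp (0.691), both without the 2 farthest pairs. None of these 5 was called in the main fit, but Fos was with training means kept (r = 0.824, adjusted p = 0.027 in the moderated regression). The cause of these turns was not tested.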
